A study of Rattus norvegicus with 2 samples.

Results

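The RNA of 8 transcription factor genes linked to cartilage and tendon formation was followed cell by cell in the rat meniscus, a crescent of fibrocartilage in the knee joint. The genes were Sox9, Sox5, Sox6, Scx, Mkx, Trps1, Id1 and Id3, chosen by symbol from the 25399 genes listed, each with 1 row. One library was made from aged and 1 from young meniscus. Tissue was digested with protease and collagenase P, and viable cells sorted by flow cytometry were profiled on the 10x platform from the 3' ends of their transcripts. The labels give the age class, and no strain, sex, exact age or number of animals. Each value is therefore that of 1 library, every interval is an exact 95% interval that covers counting error only, and no test between ages or cell groups was possible.

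SOX9 is the factor that commits cells to cartilage, and it switches on collagen II, aggrecan and other matrix genes together with its relatives SOX5 and SOX6. Scleraxis, encoded by Scx, and Mohawk, encoded by Mkx, drive the collagen-rich matrix of tendon and ligament, and the meniscus mixes both kinds of tissue. TRPS1 is a GATA-type repressor of the growth plate. ID1 and ID3 bind no DNA themselves; they hold back the E proteins that basic helix-loop-helix factors such as scleraxis pair with, and their genes are classical targets of bone morphogenetic protein (BMP) signalling.

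Stromal barcodes were those without a UMI (one counted molecule) of Ptprc, the gene of the leukocyte antigen CD45, that passed 1 of 4 thresholds taken in order. Col2a1-high barcodes held 10 or more UMIs of Col2a1 (collagen II), Chad-high barcodes 10 or more of Chad (chondroadherin, a cartilage matrix protein), Postn-high barcodes 5 or more of Postn (periostin, of fibrous tissue), and Dcn barcodes 5 or more of Dcn (decorin). In the aged library 534 barcodes passed, 8.78% of those kept, with 0 Col2a1-high, 33 Chad-high, 24 Postn-high and 477 Dcn barcodes. In the young library 204 passed, 2.33%, with 112 Col2a1-high, 17 Chad-high, 54 Postn-high and 21 Dcn barcodes. Most kept barcodes of both libraries thus lay outside these groups. Near the thresholds, 18 aged barcodes held exactly the minimum of Dcn or 1 UMI more, and 15 held 1 or 2 UMIs fewer. Levels of Col2a1, Chad, Postn and Dcn differ between groups by construction and are not results.

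The groups matched their names only in part. Of 10 chondrocyte markers all had counts in young Col2a1-high barcodes, at 3.62% of UMIs together, and 8 had counts in aged Chad-high barcodes, at 2.18%, with Matn3 and Col9a1 at 0. Of the aged Chad-high barcodes 24 also passed the Dcn threshold. The 21 young Dcn barcodes held osteoblast markers at 3.36% of UMIs, up to 28.8% in 1 barcode, against 0.0412% in aged Dcn barcodes. Single aged Dcn barcodes held up to 22.1% neutrophil or 24.0% erythroid marker UMIs. Median depth was 5813 to 6800 UMIs in the aged groups and 12283 to 18463.5 in the young groups. Because of this gap, shares of barcodes with a UMI are given after thinning each barcode to 2000 UMIs. The libraries shared 18 barcode sequences, 0 of them in the stromal groups.

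Sox9 separated the cartilage-type barcodes from the rest in both libraries. In counts per 1000000 UMIs (CPM) its level was 532 (498 to 567) in young Col2a1-high and 297 (229 to 378) in young Chad-high barcodes, against 46.2 (33.8 to 61.6) in young Postn-high and 43.8 (24.5 to 72.3) in young Dcn barcodes. In the aged library it was 410 (336 to 495) in Chad-high, 13.1 (1.58 to 47.2) in Postn-high and 23.0 (17.8 to 29.2) in Dcn barcodes. The 3 high levels stood apart from the 4 low ones with no overlap of intervals, while the aged Chad-high interval overlapped that of young Chad-high barcodes. Within the aged library Chad-high barcodes held 4.15 log2 units (3.70 to 4.62) more Sox9 than Dcn barcodes. Within the young library Col2a1-high barcodes held 3.60 log2 units (2.87 to 4.44) more than Dcn barcodes.

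The same split appeared barcode by barcode. After thinning, a Sox9 UMI was found in 63 of 112 young Col2a1-high barcodes, or 56.2% (46.6 to 65.6%), and in 15 of 33 aged Chad-high barcodes, or 45.5% (28.1 to 63.6%). It was found in 15 of 441 aged Dcn barcodes, 3.40% (1.92 to 5.55%), and in 7 of 54 young Postn-high barcodes, 13.0% (5.37 to 24.9%). At full depth Sox9 was found in 96.4% of young Col2a1-high, 78.8% of aged Chad-high and 8.18% of aged Dcn barcodes. Neutrophil barcodes, which should lack Sox9, gave 0 of 580 in the aged library, which allows a share of up to 0.634%. In the young library they gave 4 of 866, 0.462%. Their median depth was 3360 and 4228 UMIs. All these shares but that of aged Postn-high barcodes, with 0 of 24, lay above this background, and the interval of 1 of 21 young Dcn barcodes reached down to 0.12%.

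**Figure D1:**
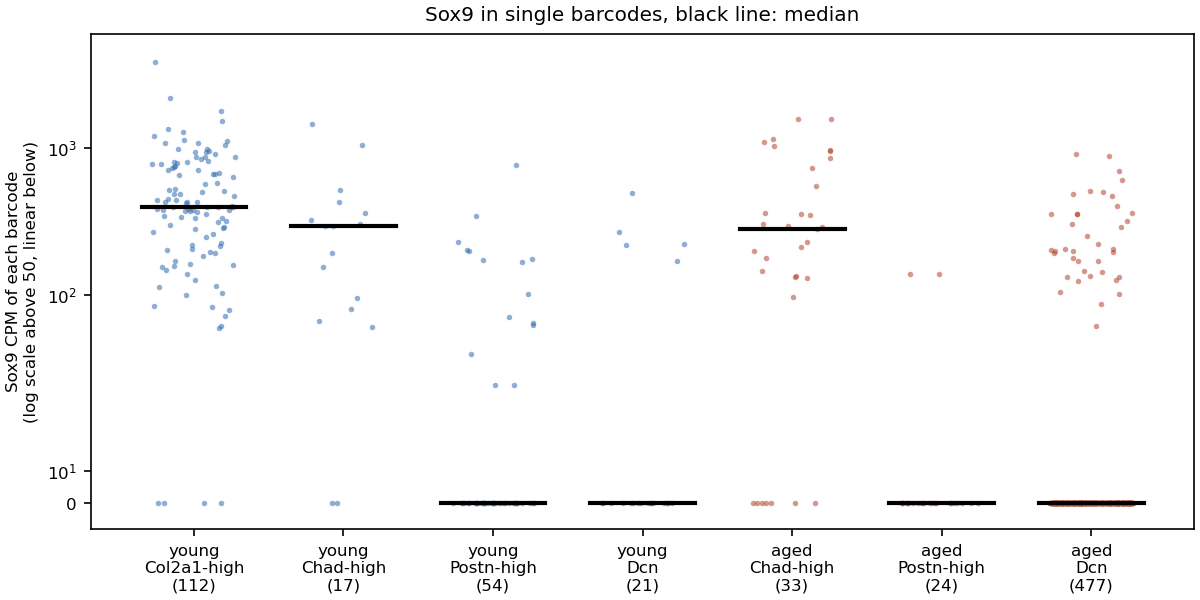
Sox9 level of each stromal barcode in CPM (vertical axis, logarithmic above 50 and linear below), by library and group, with the number of barcodes in brackets and the median as a black line. The medians are 400 CPM in young Col2a1-high, 294 in young Chad-high and 284 in aged Chad-high barcodes, and 0 in the Postn-high and Dcn barcodes of both libraries.

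Sox9 RNA was nearly confined to these barcodes. The 4 groups held 7.70% of kept aged UMIs but 91.7% of the 192 aged Sox9 UMIs, and 5.36% of kept young UMIs but 87.9% of the 1203 young Sox9 UMIs. Scx was placed in the same way, with 88.1% of 67 aged and 78.1% of 105 young UMIs in the groups. The other members were spread more widely, with 64.6% and 37.4% for Sox5, 33.3% and 46.1% for Sox6, 33.5% and 28.8% for Trps1, 20% and 29.7% for Id1, and 33.0% and 13.7% for Id3 in the aged and young library.

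Sox5, which encodes a partner of SOX9, did not follow it through the aged library. Its level was 42.1 CPM (21.0 to 75.3) in aged Chad-high, 26.1 (7.12 to 66.9) in aged Postn-high and 59.4 (50.9 to 69.0) in aged Dcn barcodes, with overlap between all 3 intervals. In the young library it was 69.7 (57.9 to 83.2) in Col2a1-high, 77.7 (45.2 to 124) in Chad-high, 49.7 (28.9 to 79.5) in Dcn and 8.03 (3.47 to 15.8) in Postn-high barcodes. Only the young Postn-high level stood below the other young groups. Sox5 UMIs were found after thinning in 36 of 441 aged Dcn barcodes, 8.16%, and in 0 of 33 aged Chad-high barcodes, which allows a share of up to 10.6%. The neutrophil share was 0.345% in the aged and 0.115% in the young library.

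Sox6, which encodes the second partner, was highest in young cartilage-type barcodes. Its level was 49.7 CPM (39.8 to 61.3) in young Col2a1-high and 32.0 (12.9 to 65.9) in young Chad-high barcodes. It was 1.00 (0.0254 to 5.59) in young Postn-high barcodes and 0 in young Dcn barcodes, with an upper limit of 10.8. The aged levels were 15.3 (4.17 to 39.2) in Chad-high, 6.53 in Postn-high and 5.84 (3.40 to 9.35) in Dcn barcodes, from 4, 1 and 17 UMIs. In the young library Col2a1-high barcodes thus held 5.67-fold more Sox6 than Dcn barcodes, counted against a floor of 3 UMIs over the group. The lower end of the exact interval was 2.17 log2 units. Sox6 was also present outside the stroma, in barcodes with 3 or more UMIs of Alas2, a gene of red-cell precursors, at 27.8 CPM (17.2 to 42.5) in the aged and 36.5 (29.0 to 45.2) in the young library.

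**Figure D2:**
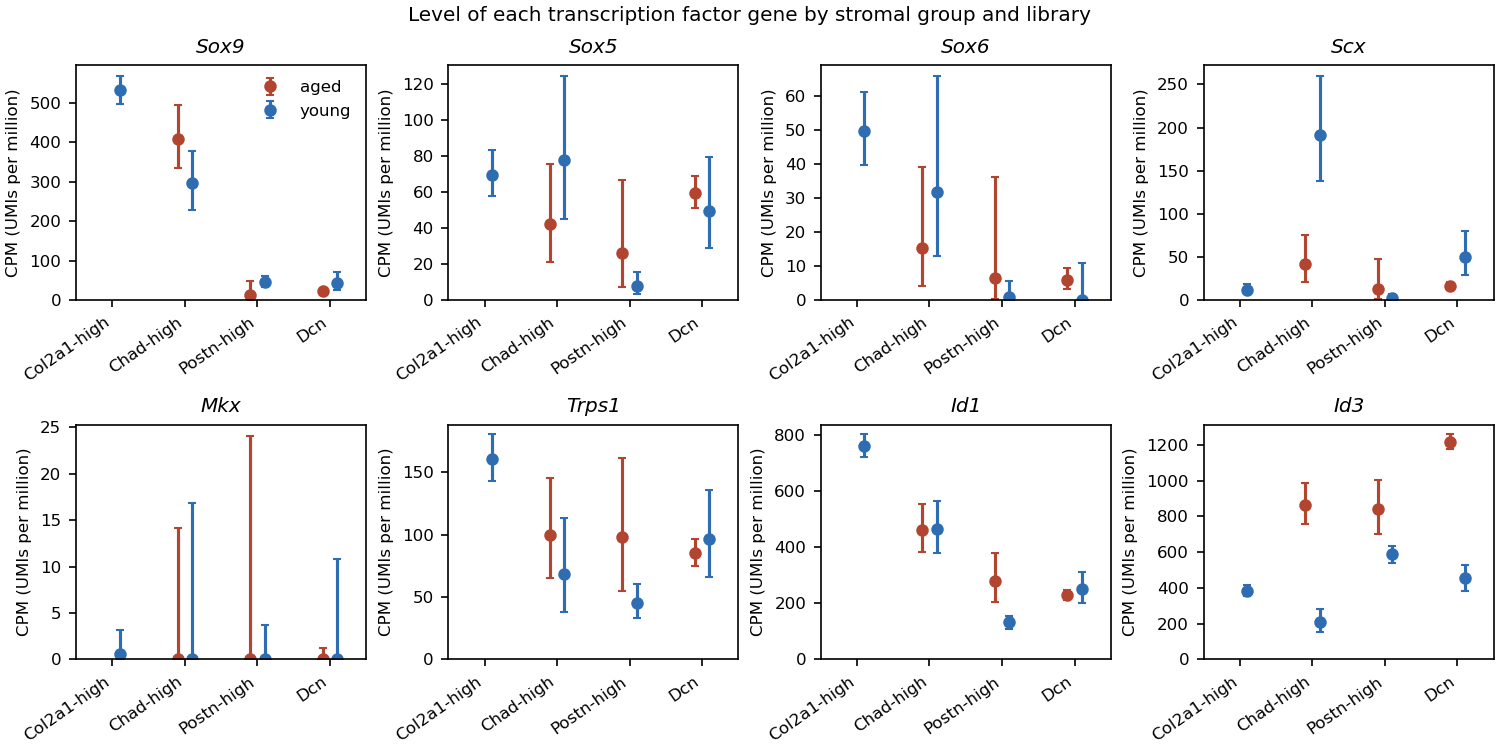
Level of each gene in CPM (vertical axes, each panel on its own scale) in the 4 stromal groups of the aged (red) and young (blue) library; points are sums over barcodes and bars are exact 95% Poisson intervals that cover counting error only. Sox9 is at 297 CPM or more in the cartilage-type groups and at 46.2 or less elsewhere, and Id3 is at 843 CPM or more in every aged group and at 587 or less in every young one.

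Scx, the tendon factor gene, was sparse, and single barcodes carried much of it. Its level was 192 CPM (138 to 259) in young Chad-high and 49.7 (28.9 to 79.5) in young Dcn barcodes, but 29 of the 42 UMIs of the first and 12 of the 17 of the second came from 1 barcode each. It was 12.0 (7.42 to 18.3) in young Col2a1-high and 2.01 (0.243 to 7.25) in young Postn-high barcodes. The aged levels were 42.1 (21.0 to 75.3) in Chad-high, 13.1 (1.58 to 47.2) in Postn-high and 15.8 (11.6 to 21.1) in Dcn barcodes. After thinning, a UMI was found in 16 of 441 aged Dcn barcodes, 3.63% (2.09 to 5.83%), against 0 of 580 aged neutrophil barcodes. Mkx was practically not measured. It had 1 UMI in the stromal groups, in a young Col2a1-high barcode, and 0 UMIs in the 6085 kept aged barcodes. In the aged Dcn barcodes this allows a level of up to 1.27 CPM.

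Trps1, the repressor gene, varied less between groups than Sox9. It was 161 CPM (143 to 181) in young Col2a1-high, 96.4 (66.4 to 135) in young Dcn, 68.5 (38.4 to 113) in young Chad-high and 45.1 (32.9 to 60.4) in young Postn-high barcodes. The intervals of the 3 aged groups overlapped, at 99.5 (65.0 to 146) in Chad-high, 98.0 (54.8 to 162) in Postn-high and 85.5 (75.2 to 96.8) in Dcn barcodes. The neutrophil level was 12.6 CPM in the aged and 25.6 in the young library, below every stromal interval.

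Id1 and Id3 were the most strongly counted members and differed in where they lay. Id1 was 761 CPM (721 to 803) in young Col2a1-high, 466 (380 to 566) in young Chad-high, 251 (201 to 310) in young Dcn and 131 (110 to 156) in young Postn-high barcodes. In the aged library it was 463 (384 to 553) in Chad-high, 281 (203 to 378) in Postn-high and 230 (213 to 248) in Dcn barcodes. In both libraries the Postn-high and Dcn barcodes had less Id1 than the cartilage-type barcodes. One barcode held 40.5% of the Id1 UMIs of aged Chad-high and another 58.1% of those of aged Postn-high barcodes. Neutrophil barcodes also held Id1, at 216 CPM in the aged and 172 in the young library, so stromal Id1 is not read against them as background.

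Id3 was higher in the aged library in each of the 3 groups that both libraries held. It was 865 CPM (756 to 985) in aged Chad-high, 843 (704 to 1001) in aged Postn-high and 1218 (1178 to 1259) in aged Dcn barcodes. The young levels were 384 (356 to 414) in Col2a1-high, 210 (154 to 280) in Chad-high, 587 (540 to 636) in Postn-high and 453 (384 to 530) in Dcn barcodes. Every aged interval lay above every young one. In Postn-high barcodes the log2 difference was 0.52 (0.24 to 0.80), and 0.08 without the top barcode of each library, which held 34.1% of the aged Id3 UMIs. In neutrophil barcodes Id3 was 42.9 CPM (36.5 to 50.2) in the aged and 40.4 (35.6 to 45.7) in the young library, with overlap. Outside the stromal groups Id3 was also higher in the aged library in other barcodes without Ptprc, at 231 against 151 CPM, with no overlap of intervals. In erythroid barcodes it was 97.9 against 26.8 CPM, but 1 barcode held 50 of the 74 aged UMIs. Over all kept barcodes, which include the stromal groups, it was 274 against 173 CPM. In B lineage barcodes it was lower in the aged library, at 69.8 against 190 CPM, with 10 of the 17 aged UMIs in 1 barcode. A higher aged Id3 was thus also seen in other barcodes without Ptprc, but not in every class.

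The balance of the pair shifted with both cell group and library. Id1 made up 66.5% (64.3 to 68.5%) of Id1 plus Id3 UMIs in young Col2a1-high and 68.9% (60.8 to 76.3%) in young Chad-high barcodes, against 34.9% (29.9 to 40.1%) in aged Chad-high barcodes. It made up 35.7% (29.6 to 42.1%) in young Dcn and 15.9% (14.8 to 17.0%) in aged Dcn barcodes. Postn-high barcodes were closer, at 18.3% (15.5 to 21.3%) in the young and 25% (18.7 to 32.2%) in the aged library. In aged Postn-high barcodes 1 barcode held 25 of the 43 Id1 UMIs and 1 held 44 of the 129 Id3 UMIs. In aged Chad-high barcodes 1 held 49 of the 121 Id1 UMIs. These aged shares therefore lean on single barcodes, which the intervals do not cover. As counted, the share was higher in the young library in Chad-high and Dcn barcodes and not in Postn-high barcodes. It is a ratio of UMIs and does not rank the levels of the 2 genes.

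**Figure D3:**
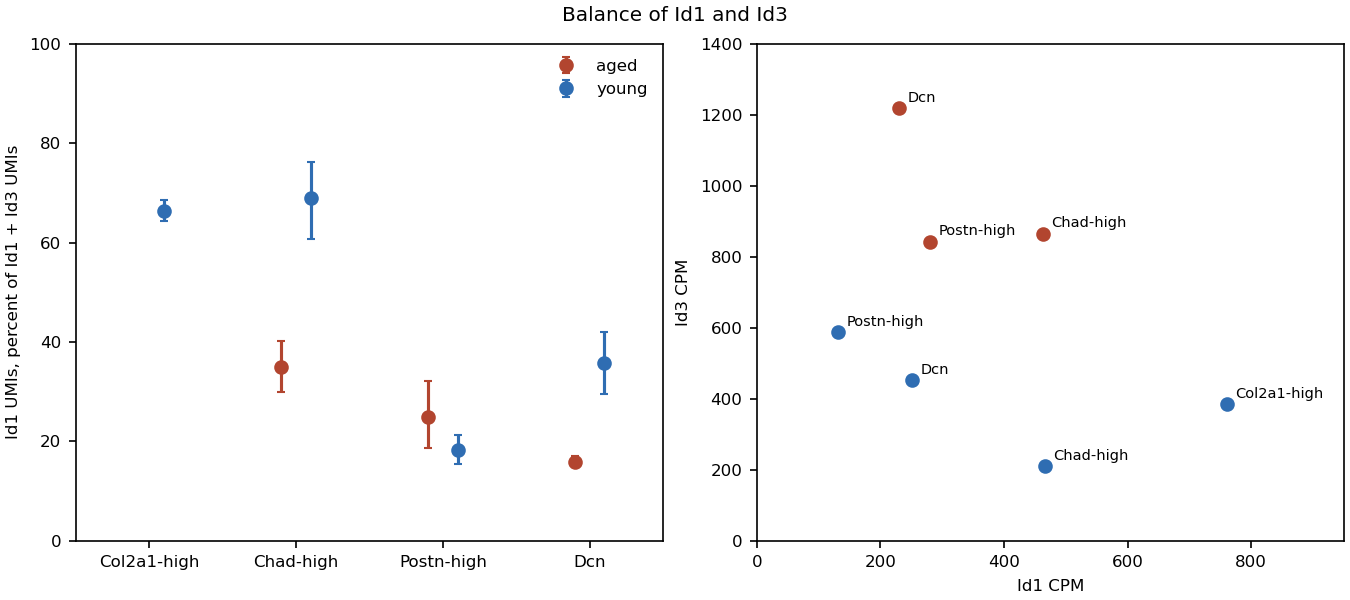
Left, Id1 as a percent of Id1 plus Id3 UMIs by stromal group (horizontal axis) in the aged (red) and young (blue) library, with exact 95% binomial intervals. Right, Id1 CPM against Id3 CPM for the same sums, where the aged points lie at 843 Id3 CPM or more and the young ones at 587 or less.

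Promoter sequences were at hand for 4 of the 8 members, Sox6, Mkx, Id1 and Id3. Those of Id1 and Id3 are shown because both genes were counted in all groups and were often found in the same barcodes. The sequences are from RefSeq on the GRCr8 build, plus strand, 250 to 41 bases before the start, at chr3:161671314-161671523 for Id1 and chr5:153656041-153656250 for Id3. Capitals mark TATAA and the GC box CCGCCC on either strand.
Id1: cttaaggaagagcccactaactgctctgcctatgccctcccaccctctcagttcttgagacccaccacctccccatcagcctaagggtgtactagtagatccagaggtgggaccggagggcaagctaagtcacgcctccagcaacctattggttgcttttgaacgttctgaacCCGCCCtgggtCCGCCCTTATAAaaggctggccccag
Id3: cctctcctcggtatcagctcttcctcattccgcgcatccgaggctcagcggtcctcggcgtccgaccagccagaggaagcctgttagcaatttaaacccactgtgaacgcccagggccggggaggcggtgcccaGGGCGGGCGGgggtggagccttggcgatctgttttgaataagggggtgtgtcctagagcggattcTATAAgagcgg
Both windows held TATAA near their 3' end, in Id1 as 2 matches on opposite strands that overlap, and both held CCGCCC 2 times, in Id3 as overlapping matches. Of 33469 rat promoter windows of this length, 20.3% held TATAA and 25.8% held CCGCCC. GC content was 56.7% for Id1 and 61.9% for Id3. These matches describe letters and are not binding sites.

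Differences within a library were counted over members with at least 20 UMIs in both groups together and a difference of at least 2-fold. In the aged library 4 of 7 such members were higher in Chad-high than in Dcn barcodes, where 7.06% of all 7819 genes were, and 0 were lower, where 24% of all genes were. They were Sox9, Scx at 1.41 log2 units (0.32 to 2.39), Sox6 at 1.39 (-0.64 to 3.01) and Id1 at 1.01 (0.72 to 1.29). Only Sox9, at 4.12, stayed past 2-fold when the barcode with most UMIs of the member was left out of each group. Scx then stood at 0.76, Sox6 at 0.66 and Id1 at 0.39.

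In the young library 6 of 7 members were at least 2-fold higher in Col2a1-high than in Postn-high barcodes, against 11.7% of 7335 genes, and 0 were lower, against 16.8%. The log2 differences were 3.53 (3.10 to 3.99) for Sox9, 3.12 (2.09 to 4.36) for Sox5 and 5.63 (3.11 to 10.95) for Sox6. They were 2.58 (0.55 to 5.72) for Scx, 1.83 (1.38 to 2.32) for Trps1 and 2.53 (2.27 to 2.80) for Id1. Id3 differed the other way, by -0.61 (-0.77 to -0.45). Against young Dcn barcodes 3 members were higher, Sox9, Sox6 and Id1 at 1.60 (1.28 to 1.93), where 11.7% of 6525 genes were. Scx was lower, at -2.05 (-3.04 to -1.04), where 18.1% were, and stood at -0.47 without its top barcodes. All 15 listed genes that the SOX trio is known to activate in the mouse were higher in Col2a1-high than in Postn-high barcodes, with a median of 6.96 log2 units against -0.18 over all genes. That list shares Col2a1 with the threshold, and most of its other genes encode matrix of the same cells. Aged Postn-high and Dcn barcodes differed in 1 of 6 members, Sox5 at -1.19 (-3.08 to 0.20) in Postn-high barcodes, where 7.58% of 7735 genes were lower, and 0 members were higher, where 11.7% were. That count ran from 0 without the deepest 8% of barcodes to 4 without the top barcodes, and Id1 went from 0.29 to -0.80 without its top barcodes and to -1.50 with thresholds doubled. Against Postn-high barcodes 1 of 4 members was higher in aged Chad-high barcodes, Sox9 at 4.97 (3.08 to 8.03), where 13.1% of 2420 genes were, and 0 were lower, where 27.3% were. Young Postn-high barcodes had 2 of 5 members lower than young Dcn barcodes, Sox5 at -2.63 (-4.05 to -1.34) and Trps1 at -1.10 (-1.78 to -0.40), where 7.08% of 5580 genes were. There 0 members were higher, where 7.94% of genes were.

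The aged library had no Col2a1-high barcodes, so cartilage-type barcodes of both ages were set side by side by Chad alone, 33 aged and 109 young barcodes with 10 or more Chad UMIs whatever their Col2a1. This comparison was added after the data were seen. Sox9 was 410 CPM in the aged and 469 CPM (437 to 503) in the young barcodes, a log2 difference of -0.20 (-0.50 to 0.10). After thinning it was found in 15 of 33, 45.5%, and in 50 of 109, 45.9% (36.3 to 55.7%). Over all Chad barcodes the 2 libraries were not distinguishable in Sox9 at this depth. The interval leaves out a 2-fold difference between the pooled counts, but it covers counting error only. It sets no limit on a difference between ages, since each age has 1 library. The 2 sets also differ in make-up, as 92 of the 109 young barcodes were Col2a1-high. Among Chad-high barcodes alone, 33 aged and 17 young, pooled Sox9 was higher in the aged library by 0.46 (0.01 to 0.93). Thinned shares were 45.5% (28.1 to 63.6%) aged and 29.4% (10.3 to 56.0%) young, with overlap. Medians over barcodes ran the other way, at 284.5 CPM aged and 294.4 CPM young. So did full-depth shares, at 78.8% and 88.2%, though young barcodes were deeper. One barcode held 14 of the 65 young UMIs. No direction is therefore given for Sox9 in Chad-high barcodes.

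Genes downstream of the SOX trio stood far apart over all Chad barcodes. Of the 15 listed targets 11 were at least 2-fold lower in the aged library and 0 higher, with a median of -2.36 log2 units against -0.20 over all 6020 genes tested. Of all genes 19.7% were lower and 9.98% higher. Col2a1, 1 of these 11, was 38.3 CPM in the aged and 8724 in the young barcodes, -7.83 (-8.89 to -6.95). This gap is set in part by the absence of aged Col2a1-high barcodes, since 92 of the 109 young barcodes were Col2a1-high. Acan, the gene of the aggrecan core protein, was 126 against 580 CPM, -2.20 (-2.75 to -1.70). Hapln1, the gene of the link protein that ties aggrecan to hyaluronan, differed by -3.31 (-3.72 to -2.92), and Snorc, the gene of a cartilage membrane proteoglycan, by -1.65 (-1.77 to -1.54). Col9a1, of collagen IX, had 0 aged UMIs against 828 CPM, 72.1-fold lower when 0 is set at 3 UMIs. Among Chad-high barcodes alone, 33 aged and 17 young that all held fewer Col2a1 UMIs than the threshold, the gap was smaller. There 6 of 8 targets tested were lower and 0 higher, with a median of -1.40 against -0.01 over all 2420 genes, of which 12.2% were lower and 14.4% higher. Col2a1, 1 of these 6, was 38.3 against 187 CPM in them, -2.29 (-3.45 to -1.27). The threshold caps its UMIs in both sets, at median depths of 6800 aged and 12283 young UMIs, so its difference there is not a result. Acan differed by -1.48 (-2.11 to -0.87).

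Other targets were not counted as 2-fold apart over all Chad barcodes. Comp, the gene of a cartilage and tendon oligomeric matrix protein, was 9235 against 10286 CPM, -0.16 (-0.22 to -0.09). Against the 17 young Chad-high barcodes alone, with 25326 CPM, Comp was lower in the aged library by more than 2-fold, at -1.46 (-1.52 to -1.39). Wwp2, a ubiquitin ligase gene that hosts a cartilage microRNA, differed by 0.04 (-0.58 to 0.61). Matn1 and Col27a1 had 0 aged UMIs. With 0 set at 3 UMIs they gave bounds of 1.15-fold and 1.94-fold, so the size of their difference is not known. Fibrous matrix genes differed too: Dcn was 18577 CPM in the aged and 1003 in the young Chad barcodes, and 24 of 33 aged against 18 of 109 young barcodes passed the Dcn threshold. Median depth was 6800 and 14994 UMIs. The part of cell make-up or depth in these differences was not tested.

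**Figure D4:**
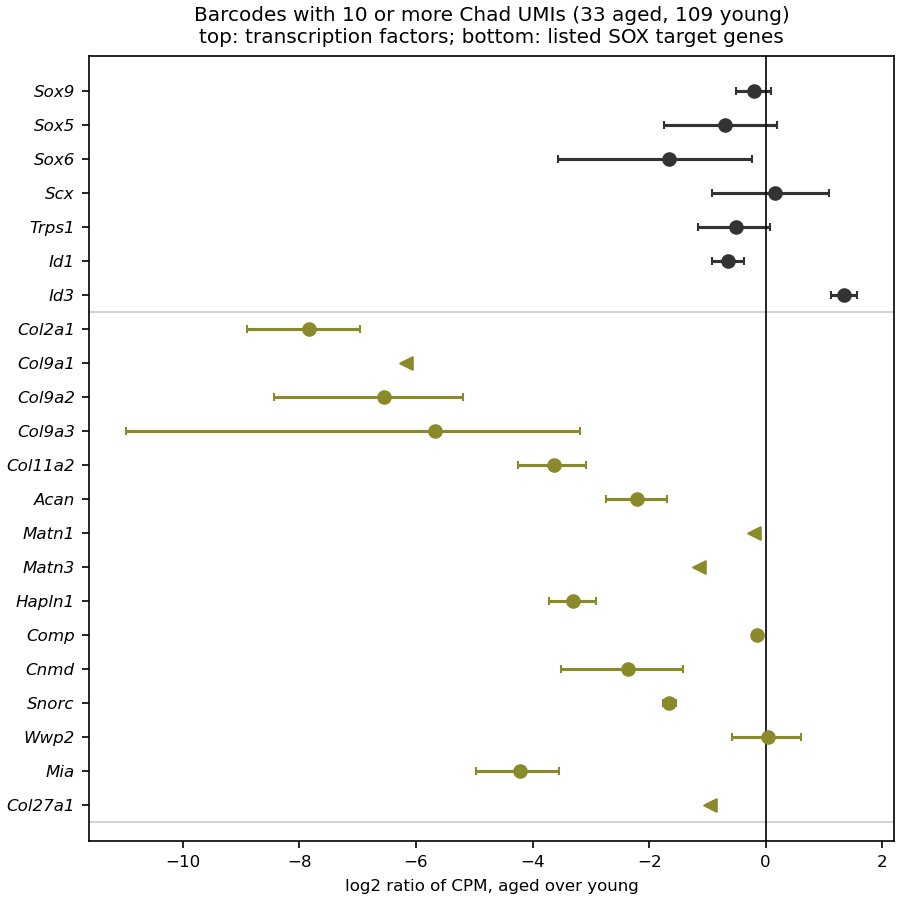
Log2 ratio of CPM, aged over young, in barcodes with 10 or more Chad UMIs (33 aged, 109 young), for 7 transcription factor genes (top) and 15 listed SOX target genes (bottom), with exact 95% intervals for counting error. Triangles are genes with 0 aged UMIs, drawn at the bound given by 3 UMIs; Sox9 lies at -0.20 while 11 of 15 targets lie below -1.

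Among the members 1 of 7 was at least 2-fold higher in the aged Chad barcodes, Id3 at 1.35 (1.12 to 1.57), and 1 lower, Sox6 at -1.65 (-3.56 to -0.24) from 4 aged UMIs. Against 9.98% and 19.7% of all genes these counts are near the background. Id1 differed by -0.64 (-0.92 to -0.37), Sox5 by -0.70 (-1.75 to 0.19), Trps1 by -0.51 (-1.16 to 0.08) and Scx by 0.15 (-0.92 to 1.09). Without the top barcode of each gene Id3 stood at 0.98, so that 0 members were higher, while 3 were lower, Sox6 at -2.42, Id1 at -1.25 and Sox5 just past 2-fold.

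Of the wider pathways in these Chad barcodes, 3 of 21 BMP and TGF-beta genes tested were higher and 5 lower in the aged library, near the 9.98% and 19.7% of all genes. Bmp2, a BMP ligand gene, was 566 against 55.3 CPM, 3.36 (2.97 to 3.75), and Tgfbr3, the gene of the betaglycan co-receptor, differed by 1.69 (1.12 to 2.24). Gdf10, a BMP family ligand gene, differed by -1.43 (-2.20 to -0.74). The E protein genes Tcf3, Tcf4 and Tcf12 and the relatives Id2 and Id4 differed by less than 2-fold, at -0.70 (-1.21 to -0.23) for Id2 and 0.47 (0.13 to 0.80) for Id4. Of 13 tendon genes tested 3 were higher and 3 lower, with a median of -0.16 against -0.20 over all genes. Among Chad-high barcodes alone 2 of 12 tendon genes were higher and 8 lower, with a median of -1.35 against -0.01 over all genes. Of all 2420 genes tested there 14.4% were higher and 12.2% lower. The 8 lower tendon genes included Scx, where 1 barcode held 29 of the 42 young UMIs. Over all Chad barcodes Thbs4, a thrombospondin gene of tendon, was 1244 against 72.1 CPM, 4.11 (3.80 to 4.42). Prg4, which encodes lubricin, was 20223 against 9902 CPM there, 1.03 (0.99 to 1.07). Of these 109 young barcodes 92 were Col2a1-high.

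In Dcn barcodes, 477 aged and 21 young, Id3 was at least 2-fold higher in the aged library, by 1.43 log2 units (1.20 to 1.67), and 12.4% of 7924 genes were higher. Scx was lower, by -1.65 (-2.48 to -0.76), and 9.64% were lower, but without its top barcode in each library it stood at -0.11. The other 4 members tested, Sox9 at -0.93 (-1.75 to -0.02), Sox5, Trps1 and Id1, were under 2-fold. The young Dcn barcodes held Bglap, the osteocalcin gene, at 33286 CPM against 345 in the aged ones. Without barcodes with 10 or more Bglap UMIs 1 member was still higher and 2 were lower. In Postn-high barcodes, 24 aged and 54 young, Id1 at 1.10 (0.56 to 1.60) and Trps1 at 1.12 (0.17 to 1.99) were higher in the aged library, where 9.87% of 5127 genes were. Sox9 was lower at -1.82 (-4.91 to 0.11) from 2 aged UMIs, where 9.4% were. Neither higher value is firm. Id1 stood at 0.04 without its top barcodes and at -0.60 with thresholds doubled, and Trps1 ranged down to 0.58. Both fell under 2-fold with TMM or DESeq2 scaling, with markers of other cell types barred or with means over barcodes.

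Over the 4 groups together Id3 was 1.41 log2 units (1.32 to 1.50) higher in the aged library, where 10.5% of 9379 genes were higher. Sox9 at -2.59 (-2.83 to -2.36) and Sox6 at -2.12 (-2.86 to -1.44) were lower, where 8.67% were. Of these barcodes 112 of 204 young and 0 of 534 aged were Col2a1-high. Over all Chad barcodes the Sox9 difference was -0.20, but 92 of the 109 young ones were still Col2a1-high. Chad-high barcodes alone lay under the Col2a1 threshold in both libraries. There the sign of the pooled difference was the other way, but the median over barcodes was not higher in the aged library. In the smaller set of Chad-high barcodes, 33 aged and 17 young and again added after the data were seen, Sox9 differed by 0.46 (0.01 to 0.93) and Id1 by -0.01 (-0.40 to 0.39). There Id3 was higher by 2.04 (1.58 to 2.53), where 14.4% of 2420 genes were, and Scx lower by -2.19 (-3.30 to -1.21), where 12.2% were. One barcode held 29 of the 42 young Scx UMIs and another held 20 of the 46 young Id3 UMIs. The 2 sets also differed in fibrous genes: Col1a1 was 268 CPM in the aged and 25769 in the young barcodes, Col3a1 272 and 6245, and the 8 fibroblast markers together 1.98% and 3.88% of UMIs. The part of this in the members' differences was not tested.

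Cell by cell, Sox9 and matrix RNA were compared within a group, where barcodes of 1 library share tissue and processing and are not replicates. Young Col2a1-high barcodes with a Sox9 UMI after thinning (63) and without (49) held similar shares of the 26 cartilage matrix genes, 6.1% and 6.48% of UMIs. Col2a1 was 10101 against 8738 CPM, with medians over barcodes of 8156 and 7936. Chad was 3660 against 5412 CPM, with medians of 2072 and 2889. Spearman's rank correlation with Sox9 over the 112 barcodes was -0.08 for the cartilage list and -0.27 for Chad. Within this group, barcodes with a Sox9 UMI after thinning did not hold a higher share of cartilage matrix RNA, also when thinned to 1000 or 4000 UMIs. At full depth 108 of the 112 barcodes held Sox9, so most of those counted as without it did hold its RNA. The group is also set by Col2a1, a gene of the cartilage list. The split therefore cannot decide whether Sox9 and matrix RNA go together in single barcodes.

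In the aged library the sign depended on the thinning depth. In aged Chad-high barcodes the cartilage list was 5.37% of UMIs in the 15 barcodes with Sox9 and 5.45% in the 18 without. The list of 25 fibrous matrix genes was 2.30% against 3.85%, with a rank correlation with Sox9 of -0.36 over 33 barcodes. In aged Dcn barcodes the cartilage list was 0.842% of UMIs in the 15 with Sox9 and 1.07% in the 426 without. With barcodes thinned to 4000 UMIs, the share in aged Chad-high barcodes was 5.82% in the 17 with Sox9 and 3.49% in the 8 without. With thinning to 1000 UMIs, that in aged Dcn barcodes was 1.37% in the 11 with Sox9 and 1.05% in the 450 without. No direction is therefore given for the aged barcodes.

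**Figure D5:**
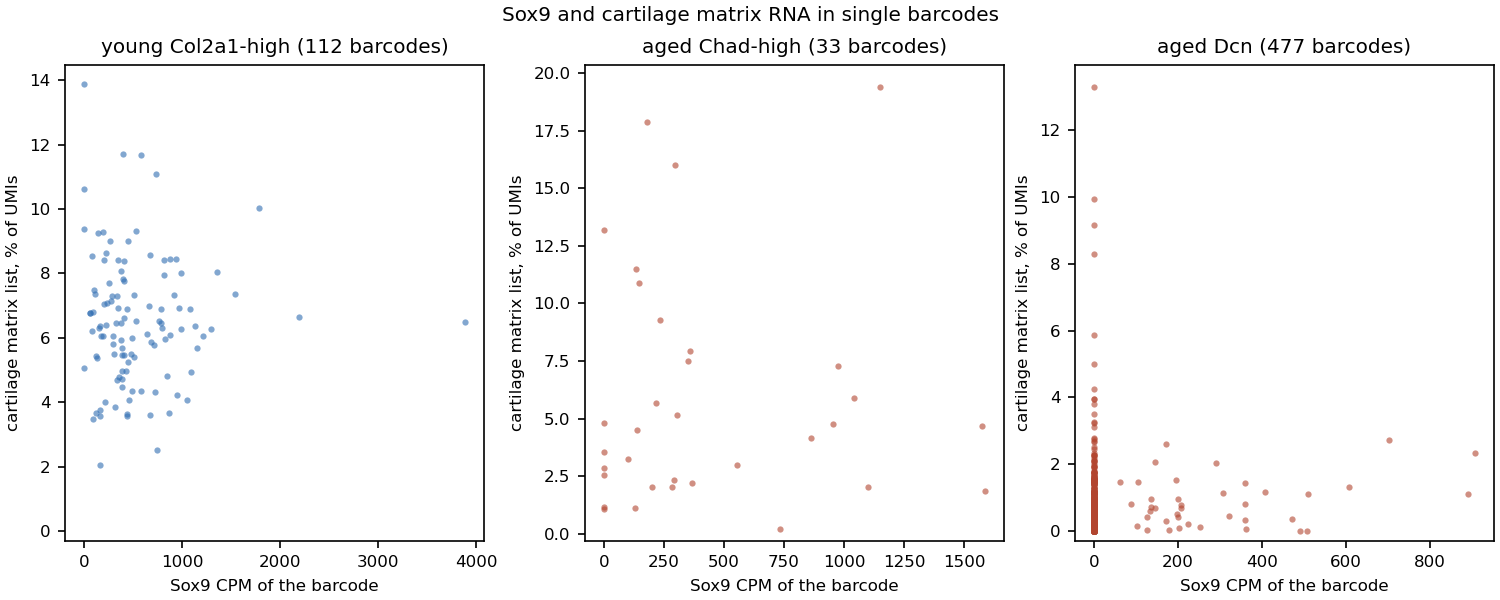
Sox9 CPM of each barcode (horizontal axis) against the percent of its UMIs in the cartilage matrix list (vertical axis) in young Col2a1-high, aged Chad-high and aged Dcn barcodes, at full depth. The highest cartilage matrix shares in the young Col2a1-high and the aged Dcn panel belong to barcodes with 0 Sox9 UMIs, and the highest in the aged Chad-high panel to a barcode with Sox9.

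Barcodes with and without Scx were compared in tendon genes. Among aged Dcn barcodes the 16 with an Scx UMI held Tnmd, the gene of the tendon membrane protein tenomodulin, at 544 CPM against 7.92 in the 425 without. Tnmd was found in 4 of 16 and 7 of 425, and 1 barcode held 58.0% of its UMIs in the first set. Fmod, the fibromodulin gene, was found in 11 of 16 and 132 of 425 barcodes, at 1447 and 366 CPM. Dcn had medians of 33126 and 18860 CPM and Comp of 7076 and 2868 CPM. Comp was found in 12 of 16 and 296 of 425 barcodes, and its rank correlation with Scx was only 0.09. The fibrillar collagen genes did not follow: Col3a1 was lower with Scx, at 2427 against 3966 CPM, and Col1a1 was 2252 against 2414 CPM. Median depths were 5821 and 6063 UMIs.

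Sox5 went with other genes in the aged Dcn barcodes. The 36 with a Sox5 UMI had a median Prg4 level of 1045 CPM against 280 in the 405 without, and a median Dcn level of 7794 against 20000 CPM. Pooled Prg4 was 19588 against 3441 CPM, with 40.4% of the first in 1 barcode. Barcodes with Sox5 thus held more lubricin RNA and less decorin RNA. Trps1 showed little of this, with a cartilage list share of 0.997% in the 70 with and 1.08% in the 371 without.

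Id1 and Id3 went with Comp in the aged Dcn barcodes. The 102 with an Id1 UMI had a median Comp level of 5987 CPM against 1732 in the 339 without. The 299 with an Id3 UMI had 3892 against 141 in the 142 without. Aged Chad-high barcodes did not share this, with pooled Comp at 5129 CPM in the 12 with Id1 against 10807 in the 21 without, and at 7153 in the 18 with Id3 against 11950 in the 15 without. For Id3 the medians there ran the other way, at 6800 and 5089 CPM. Id1 and Id3 were also found together in the aged Dcn barcodes: Id3 was found in 91 of the 102 with Id1, 89.2%, and in 61.4% of those without. In young Col2a1-high barcodes the link was looser, with Id3 in 47.0% of barcodes with Id1 and 34.8% without.

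Within the SOX trio, shared detection rested on few barcodes. In young Col2a1-high barcodes Sox5 was found in 8 of 63 with Sox9, 12.7%, and in 8.16% without, and Sox6 in 7 of 63, 11.1%, and in 8.16%. Id1 was found less often with Sox9, in 30 of 63 barcodes, 47.6%, than without it, in 73.5%. In aged Chad-high barcodes the order was the other way, 7 of 15, 46.7%, against 27.8%.

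Genes with the profile most like each member were ranked by Pearson's r over the 6 group sums with at least 20 barcodes, among 3265 genes with 200 or more UMIs in the groups. For Sox9 they were Ecrg4 (0.998), Scrg1 (0.980) and Clec3a (0.978), and 27 genes reached 0.95. For Id1 they were Smoc2 (0.987), Ccn1 (0.976) and Pdrg1 (0.970), and for Id3 Rnf19a (0.977), Stat3 (0.969) and Cxcl10 (0.952). For Trps1 the first was Sema3d (0.973), for Scx Tpm2 (0.970), for Sox5 Naa50 (0.983) and for Sox6 Bex3 (0.996). With 6 sums from 2 libraries of unequal depth such values are a description.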

How the data were processed

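Single-cell RNA of 1 aged and 1 young rat meniscus library was analysed from the deposited matrices, which hold raw UMI counts per gene and barcode, not normalised by the authors. The submitters' processing notes name Cell Ranger 6.1.1. Which genome build was used is not given in the sources used here. The aged library held 8422 barcodes and 47228750 UMIs, the young 9914 and 65051972. A barcode needed 500 genes, and no more than 20% of its counts from the 13 mitochondrial genes. This kept 6085 aged and 8773 young barcodes, with medians of 3686 and 3846 UMIs. Doublets were not called; an alternative left out the deepest 8% of barcodes.

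Counts were summed per group and scaled to CPM over all UMIs. Intervals are 95%: Poisson for levels, Clopper-Pearson for shares, conditional binomial for ratios. Counts include free RNA. A count of 0 was set at 3 counts. Genes with at least 20 summed counts were compared, and a difference of 2-fold was counted by size, with no test. Age comparisons needed 20 barcodes in each library; comparisons by Chad relaxed this and were added later. Barcodes were thinned to 2000 UMIs for shares of barcodes with a UMI and for the cell by cell comparison, leaving out shallower ones (36 of 477 aged Dcn barcodes). Background classes were neutrophil barcodes (1 or more Ptprc and 20 or more S100a8 UMIs) and erythroid barcodes (3 or more Alas2 UMIs). Likeness used log2(CPM + 10). Named genes were the 8 members, up to 4 genes per list with most counts, the 10 matrix genes compared cell by cell, the 15 SOX targets and the Id and E protein genes; Thbs4 and the promoters were chosen after their values were seen. Some genes of the lists, Pcolce2, Col1a2 and Col6a3 among them, were not analysed here.

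The members and lists were chosen with earlier results of these data known. Alternatives covered the barcode filter, thresholds and their order, other cell type markers, edgeR 4.0.16 TMM and DESeq2 1.42.0 scaling, totals, barcode means, depth and count minimum. The ratio computation was tested on simulated data. Tools were R 4.3.3 and Python 3.11.15 with scipy 1.17.1, pandas 2.3.3 and numpy 2.4.6.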

Additional observations from a re-analysis of the deposited data

Results flagged for a closer look

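Member RNA was also counted in barcodes that the groups leave out. Sox9 had 119 UMIs in 32 young barcodes that passed a threshold but held a Ptprc UMI, a level of 183 CPM, found in 22 of them, and 6 UMIs in 53 such aged barcodes, 8.30 CPM. Scx had 15 UMIs in the young and 5 in the aged barcodes of this kind. Their median depth was 19279.5 UMIs in the young and 9402 in the aged library; whether they hold more than 1 cell was not tested. Sox6 had 83 UMIs in 181 young and 21 in 57 aged erythroid barcodes. Each of these counts lies above the 3 UMIs at which a count of 0 was set.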

How the results depend on the processing

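No paired analysis was possible because each age has 1 library. Of 256 alternative counts of members past 2-fold, 225 stayed within 1.5 times. Of 693 alternative ratios 645 stayed within their interval. Results that rest on thinning were less stable. Of 192 alternative shares of barcodes with a UMI, which include other depths and no thinning, 67 left their interval. Of 37 alternative differences in cartilage list share between barcodes with and without a member UMI, 8 changed sign. Sox9 in aged Chad-high over Dcn barcodes ranged from 3.96 to 4.32, in young Col2a1-high over Dcn barcodes from 2.67 to 4.15, and in aged over young Chad barcodes from -0.35 to -0.11. Id3 in aged over young Dcn barcodes ranged from 1.14 to 1.73. One called ratio reversed, Id1 in Postn-high barcodes at -0.60 with thresholds doubled. Scaling by TMM shifted all ratios by -0.28 (age, Postn-high), 0.24 (age, Dcn), 0.16 (aged Chad-high over Dcn), -0.30 (aged Postn-high over Dcn), 0.40 (young Col2a1-high over Dcn) and 0.21 (over Postn-high).

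Counts moved as follows; the cause was not tested. Age, Postn-high, 2 higher: 0 with thresholds doubled, other cell type markers barred, TMM, DESeq2, the total without matrix genes or barcode means, 1 with thresholds halved or without the top barcode, 5 with no count minimum; 1 lower: 0 with thresholds doubled or 50 counts. Age, Dcn, 1 lower: 2 with groups set at 2000 UMIs, Bglap barcodes left out or barcode means, 0 without the top barcode. Age, Chad barcodes, 1 higher: 0 with the strict filter or without the top barcode, 2 with other cell type markers barred or the deepest 8% left out; 1 lower: 3 without the top barcode. Aged Chad-high over Dcn, 4 higher: 2 with groups set at 2000 UMIs, 1 without the top barcode. Aged Postn-high over Dcn, 1 lower: 2 with TMM, DESeq2 or Bglap barcodes left out, 3 with thresholds doubled, 4 without the top barcode, 0 without the deepest 8%. Young Col2a1-high over Dcn, 1 lower: 0 with Postn first, 50 counts or without the top barcode.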
